A study of Drosophila melanogaster with 3 samples.

Results

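The gap and pair-rule genes are transcription factor genes that divide the early Drosophila embryo into segments. Those described here are the gap genes hb, Kr and gt and the pair-rule genes eve, ftz, h, run, odd, prd and slp1. They were taken by name from the Release 6 gene annotation, 10 of 13945 protein-coding genes, and not for any measured value. All 10 were found, h under its current symbol hry. The data are peak lists from chromatin immunoprecipitation sequencing (ChIP-seq) of Hr51, a nuclear receptor of the NR2E group. Whole embryos of both sexes, aged 0 to 24 h, came from a transgenic fly line (strain Dhr51-GFP) that stably expresses Hr51 with GFP at its C-terminus, and the fusion was precipitated through its GFP. The 3 samples are biological replicates of this 1 group. No control library is among them, so no comparison between conditions was possible and no test over samples was run. A collection of 0 to 24 h mixes embryos before, during and long after segmentation, and binding in few cells cannot be told apart from weak binding in many.

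In the segmentation cascade, gap genes are switched on in broad domains by maternal gradients. Their products then place the stripes of the pair-rule genes. Most of this control runs through enhancers in the sequence beside the genes. Those of gt, Kr and hb are best known upstream. The stripe enhancers of eve lie on both sides of the gene, those of h and run are known upstream, and ftz has its zebra element just upstream of its start. For slp1, early stripe elements are known upstream, and the neighbouring paralog slp2 shares its expression pattern. The promoter of each gene was therefore set against its flanks. A window was the gene with 10 kb to either side, and a promoter was the sequence up to 500 bp from any transcription start site (TSS) in the annotation.

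The strongest of the reproducible peaks near these genes lay between slp1 and slp2. The authors' optimal list, thresholded by irreproducible discovery rate (IDR), held 3496 peaks, and 5 of their summits fell in the 10 windows. This was a mean of 0.5 per window, against 1.134 over all protein-coding genes, whose windows hold more neighbouring genes. These were 2 in the slp1 window, 2 in the eve window and 1 at the promoter of h. The sequences below, all in the genomic plus strand, are those around the 2 slp1 summits of the IDR list. For comparison, those around the strongest pooled summits of h and odd outside promoters are also given, which were not in the IDR list. Those at the IDR summits of eve and of the h promoter are not shown. Capitals mark matches, on either strand, to the consensus GGTCACACT of the promoter factor M1BP and to GAGAG, bound by GAGA factor. The slp1 +6847 line is chr2L:3832373-3832671, slp1 +2291 is chr2L:3827916-3828016, h -3078 is chr3L:8672631-8672731 and odd +5683 is chr2L:3601023-3601123. The numbers after the names give the distance in bp of the summit from the gene's nearest TSS, positive in the direction of transcription.
slp1 +6847: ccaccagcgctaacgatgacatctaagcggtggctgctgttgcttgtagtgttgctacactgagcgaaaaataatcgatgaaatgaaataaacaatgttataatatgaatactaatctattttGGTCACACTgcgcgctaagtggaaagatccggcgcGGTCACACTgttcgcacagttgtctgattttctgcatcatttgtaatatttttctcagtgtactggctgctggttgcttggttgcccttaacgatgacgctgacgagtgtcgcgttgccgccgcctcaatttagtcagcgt
slp1 +2291: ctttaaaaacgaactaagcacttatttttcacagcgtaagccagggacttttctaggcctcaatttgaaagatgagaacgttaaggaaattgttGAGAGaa
h -3078: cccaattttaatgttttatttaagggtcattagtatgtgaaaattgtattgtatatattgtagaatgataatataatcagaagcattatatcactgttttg
odd +5683: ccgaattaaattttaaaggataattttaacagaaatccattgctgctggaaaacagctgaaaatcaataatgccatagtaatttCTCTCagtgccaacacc

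The summit at slp1 +6847 was by far the strongest near any of the 10 genes. slp1 (FBgn0003430, 2L 3825675 to 3827099, plus strand) encodes a forkhead-domain factor. The peak spanned 2L 3832373 to 3832628 in intergenic sequence, and slp2 (FBgn0004567) has the nearest coding TSS, 4318 bp further on. Signal is the value of the authors' peak caller and is comparable only within a list. It was 342 in the pooled list, where the peak ranked 176 of 30000. The same place had a signal of 106 in replicate 1 (rank 253), 104 in replicate 2 (rank 258) and 126 in replicate 3 (rank 146). All 3 replicates thus placed it among the strongest peaks of its list of 30000. Among the 1342 IDR peaks at no annotated promoter it ranked 44.

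This intergenic sequence held 2 copies of the M1BP consensus within 50 bp of the summit, on the same strand. That consensus is otherwise known from promoters of constantly active genes. Of the 1342 IDR summits at no promoter, 2 had a copy within 50 bp and 1, this one, had 2 copies. Of the 2154 IDR summits at promoters, 46 had a copy and 1 had 2 or more. Among all pooled summits 0.603% had a copy. A match is a description of the letters and was not tested as a binding site, and no TSS of an annotated gene lay within 500 bp.

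The other slp1 peak was less even between replicates. It lay at 2L 3827756 to 3828175, beyond the 3' end of slp1, with a pooled signal of 105 and rank 2137. Its signal was 12.2 in replicate 1 (rank 14342), 30.7 in replicate 2 (rank 2887) and 49.4 in replicate 3 (rank 1151). Replicate 1 thus held it far down its list, and the others held it among their highest 3496 peaks. The upstream flank of slp1, which holds its early stripe elements, had no IDR summit. The pooled list had 2 there, at ranks 13382 and 20375.

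Of the 10 genes, h alone had an IDR summit at its own promoter, and its window held the most pooled summits. h (FBgn0001168, 3L 8675759 to 8679253, plus strand) encodes a basic helix-loop-helix repressor. The promoter summit lay 2 bp from a TSS, in a peak at 3L 8675743 to 8676162 with a pooled signal of 82.3 and rank 3195. The lowest signal in the IDR list was 77.3. Within 150 bp of it replicate 1 had a signal of 26.0 (rank 3894) and replicate 2 of 42.4 (rank 1644), and replicate 3 had no summit. Replicate 3 instead had its strongest summit of this promoter at 3L 8675780, with a signal of 32.8 and rank 2623. All 3 replicates therefore held a summit at the promoter, though not at 1 place. Counting only IDR summits that were also among the highest 3496 peaks of both other replicates, the promoter dropped out whichever replicate was left out, and the count of members became 0.

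Just below the IDR list stood a summit in the upstream flank of h, at -3078, with a pooled signal of 72.2 and rank 3845. It ranked 7325 in replicate 1, 3040 in replicate 2 and 1957 in replicate 3. The replicate summits lay at offsets of -11, -150 and 81 bp from it along the chromosome, so not at 1 place, and that of replicate 2 was at the limit of the match. The pooled list held 15 summits in the h window, and by pooled summits per kb h stood at percentile 94.4 of all protein-coding genes. The replicates had 13, 11 and 11 there. No other gene has a TSS in this window, and 7 of the 15 summits lay in the downstream flank.

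eve had IDR summits in both flanks, and each lay at the promoter of a neighbour. eve (FBgn0000606, 2R 9979319 to 9980795, plus strand) encodes a homeodomain repressor. The summit on the upstream side was 63 bp from the TSS of CG12134 (FBgn0033471), with a pooled signal of 93.6 and rank 2594. It ranked 3092 in replicate 1, 2087 in replicate 2 and 4062 in replicate 3. The summit on the downstream side was 50 bp from the TSS of TER94 (FBgn0286784), an ATPase that extracts proteins from the endoplasmic reticulum, and 176 bp from that of the non-coding gene lncRNA:CR45324. It had a pooled signal of 125 and rank 1574, and ranked 2663, 1240 and 2006 in replicates 1, 2 and 3. At the eve promoter itself the pooled list had 1 weak summit, 352 bp upstream of the TSS, at rank 15457. In the pooled list no summit of the eve window lay outside annotated promoters, though each relaxed replicate list had at least 1 there, and the others upstream were at the promoters of 2 non-coding genes.

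odd, a zinc-finger pair-rule gene (FBgn0002985, 2L 3604224 to 3606756, minus strand), had no IDR summit but came close to it. At its promoter a summit 128 bp past the TSS had a pooled signal of 67.7 and rank 4211. Its signal was 30.9 in replicate 1 (rank 2970), 13.7 in replicate 2 (rank 14552) and 33.3 in replicate 3 (rank 2555). The replicate summits lay at offsets of 32, -129 and 78 bp from it along the chromosome. In replicate 2 the strongest summit of this promoter was another, at rank 5919. At +5683 a summit had a pooled signal of 65.2 and rank 4483, and ranked 3436 in replicate 1 and 3200 in replicate 2, while replicate 3 had none within 150 bp. The plot of ranks by replicate places these summits around the length of the IDR list.

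**Figure D1:**
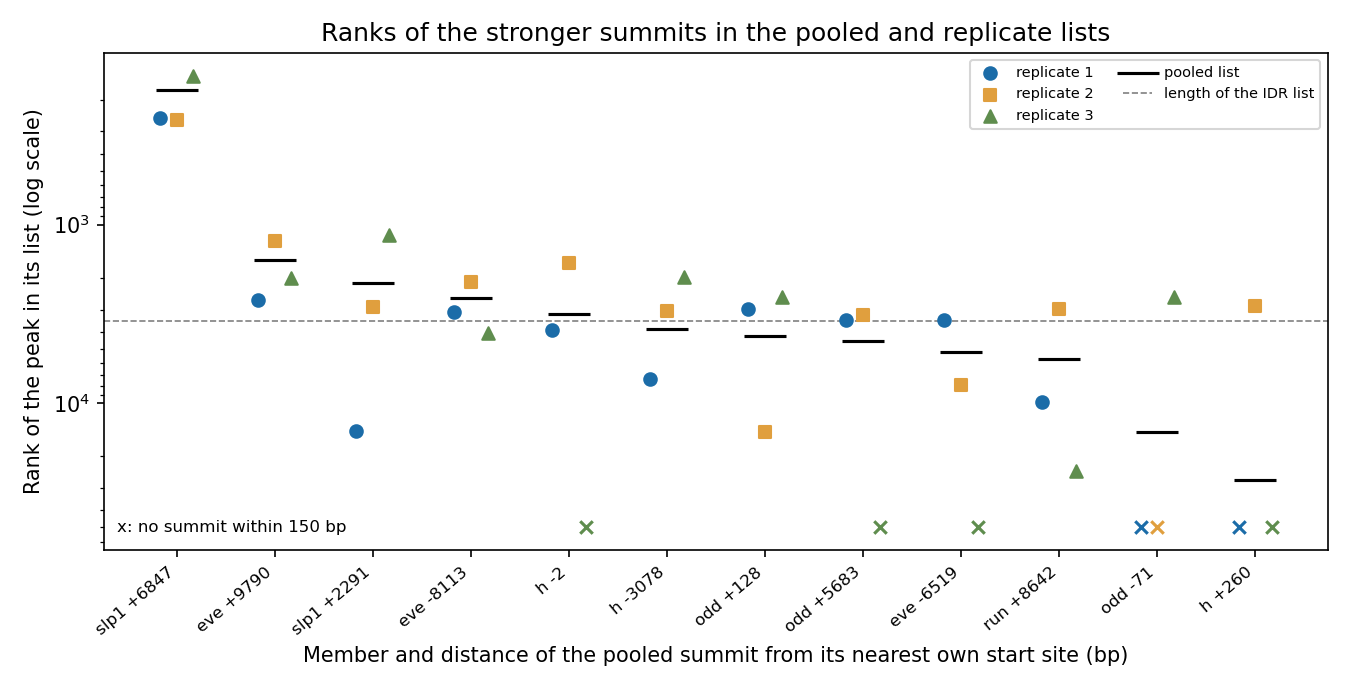
Rank of each summit (vertical axis, log scale, strongest at the top) that was in the IDR list or among the highest 3496 peaks of a replicate, for the pooled list (bars) and replicates 1 to 3 (points), with crosses where a replicate had no summit within 150 bp. The dashed line is rank 3496. The summits at slp1 +6847, with ranks from 146 to 258 in the replicates, and at eve +9790 lie above it in every list, and each of the others falls below it or is missing in at least 1 list.

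The remaining members had weaker summits only. ftz, a homeodomain gene (FBgn0001077, 3R 6864324 to 6866244), had 4 pooled summits, the strongest 6701 bp past its TSS at rank 6573, and none at its promoter in the pooled list or in any of the 3 replicate lists. run (FBgn0003300, X 20690670 to 20697321), the founding Runt-domain gene, had 6, the strongest at +8642 at rank 5671. That summit ranked 9901, 2984 and 24220 in replicates 1, 2 and 3. prd (FBgn0003145, 2L 12082995 to 12085827), with a paired domain and a homeodomain, had 6, of which 4 lay in or by the neighbours Pex19 and CG6712. Its best rank was 11079.

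The 3 gap genes had no IDR summit in their windows. Over all protein-coding genes 57.8% had one, and over those with at most 1 other coding TSS in the window, as these 3 have, 25.9% did. With 3 genes the count is coarse. hb (FBgn0001180, 3R 8690980 to 8697822), a zinc-finger gene, had 6 pooled summits, with the strongest in its coding exon at rank 7523. That summit had a signal of 12.3 in replicate 1, 19.9 in replicate 2 and 12.7 in replicate 3. At the hb promoter the pooled list had a summit at rank 29355, close to the end of the list. Kr (FBgn0001325, 2R 25226611 to 25231394), a zinc-finger gene, had 2 summits, both inside the gene. gt (FBgn0001150, X 2427113 to 2428967), a leucine-zipper gene, had 1, in its downstream flank at rank 9246. In the upstream flank that holds its known enhancers gt had none in the pooled list or in replicates 1 and 3, and 2 in the relaxed list of replicate 2.

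**Figure D2:**
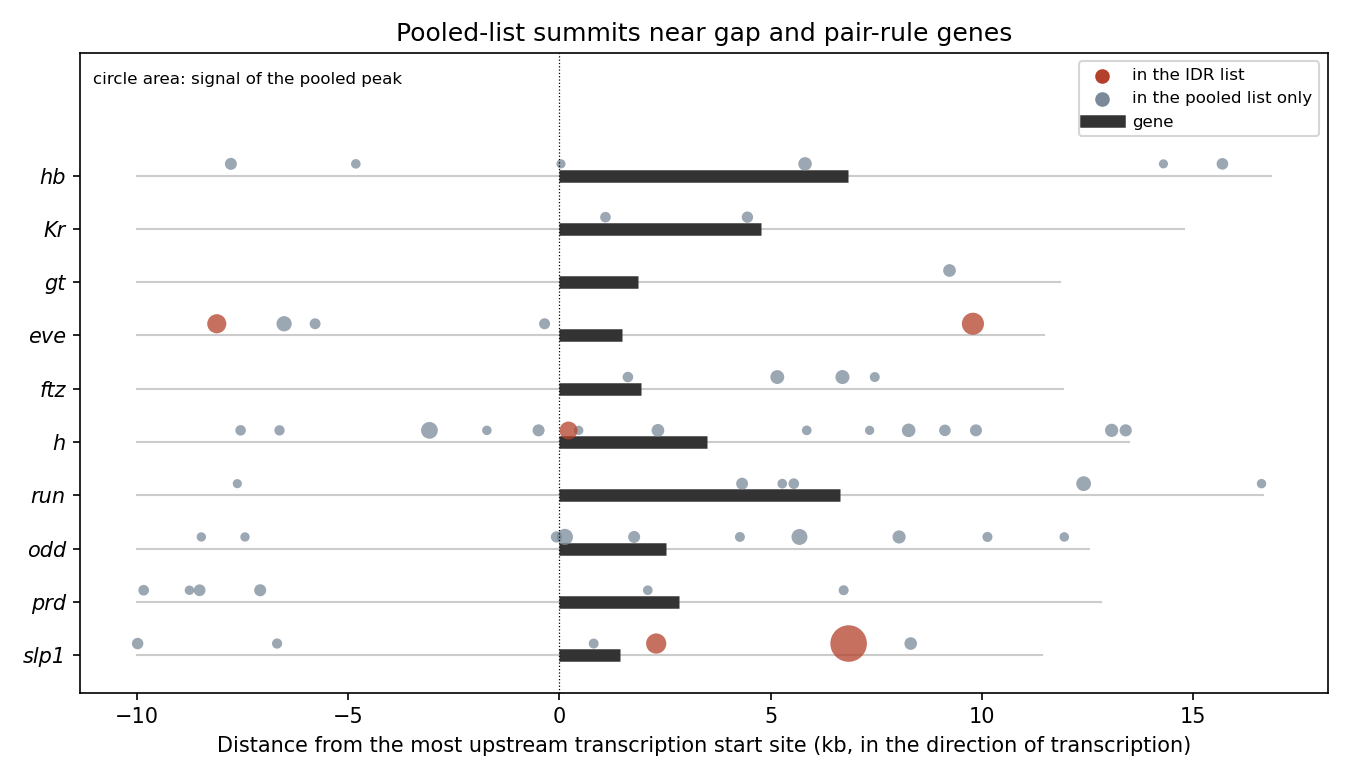
Summits of the pooled list in the windows of the 10 genes, by distance in kb from the most upstream TSS (horizontal axis) in the direction of transcription. Black bars are the genes, circle area is the pooled signal, and the 5 IDR summits are in red. The slp1 summit with signal 342 stands out, and the eve summits sit near the ends of the window.

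Over the replicate lists of 30000 peaks, which include background, the gap gene windows held 12, 18 and 9 summits in 73.5 kb and the pair-rule windows 49, 49 and 52 in 160.3 kb. This was 1.77 ± 0.624 per 10 kb for gap genes and 3.12 ± 0.108 for pair-rule genes (SD, n = 3 replicates). In each replicate the gap genes were lower. Without h, left out after its count was seen, the pair-rule value was 2.80 ± 0.184 (SD, n = 3). The same 3 libraries gave both values and the difference was not tested. In the pooled list the gap gene windows held 1.225 summits per 10 kb and the pair-rule windows 3.243. The mean of the single-gene values over all protein-coding genes was 3.231 in that list, near the pair-rule value and above the gap gene value. Over the 1623 genes with at most 1 other coding TSS in the window, the median was 1.402, near the gap gene value. All 3 gap genes are among these, as are ftz, h, run, odd and slp1. The part of neighbours in the difference was not tested.

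Set beside all genes, a lower share of the 10 had an IDR summit, most so over the whole window. With 10 genes each count is coarse, and those at the own promoter, inside the gene and at no annotated promoter were near the all-gene shares. Only h, 1 of 10, had an IDR summit at its own promoter, against 19.1% of protein-coding genes. An IDR summit anywhere in the window was found for eve, h and slp1, 3 of 10, against 57.8%. In the upstream flank it was 1 of 10 (eve) against 28.5%, and in the downstream flank 2 of 10 (eve and slp1) against 32.1%. Inside the gene but outside the promoter it was 0 of 10 against 5.34%. At no annotated promoter it was 1 of 10 (slp1) against 19.2%.

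Among the highest 3496 peaks of each replicate, the counts over the whole window were also below the all-gene share. In replicate 1, 3 of 10 windows held such a summit (eve, odd, slp1) against 57.8% of genes. In replicate 2 it was 5 of 10 (eve, h, run, odd, slp1) against 56.8%, and in replicate 3 it was 4 of 10 (eve, h, odd, slp1) against 55.8%. The mean was 4 ± 1 members with a summit in the window (SD, n = 3). At the own promoter replicate 1 had 1 of 10 (odd) against 19.3%, replicate 2 had 1 of 10 (h) against 18.7%, and replicate 3 had 2 of 10 (h and odd) against 18.3%. These shares were near those of all genes, with a mean of 1.33 ± 0.577 members (SD, n = 3).

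At no annotated promoter the replicates gave more members than the IDR list. Replicate 1 had 2 of 10 there (odd and slp1) against 19.6% of genes. Replicate 2 had 4 of 10 (h, run, odd and slp1) against 20.2%, and replicate 3 had 2 of 10 (h and slp1) against 19.0%. The mean was 2.67 ± 1.15 members (SD, n = 3), at or above the share of all genes in each replicate, while the IDR list gave 1 of 10. In each of the 3 lists slp1 was among them.

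The windows of these genes are poor in other genes, and over all genes the share with an IDR summit was higher where neighbours were more. A window held the TSSs of 0 to 2 other protein-coding genes, with a median of 0.5, against a median of 5 over all genes. Of the 3496 IDR summits, 2154 were at annotated promoters. Of the 649 protein-coding genes with no other coding TSS in the window, 17.6% had an IDR summit there, and of the 5 members among them (Kr, ftz, h, run and odd) 1 did. Of the 1623 genes with at most 1, 25.9% had an IDR summit, and 2 of the 8 members did. At no annotated promoter these 1623 genes had one in 17.3% and the 8 members in 1. Of the 6917 genes with 2 to 5, 54.5% had an IDR summit, and 1 of the 2 members (eve and prd) did. The members' counts were thus close to those of genes with as few neighbours, a comparison chosen after the counts were seen. With so few members it is coarse, and the part of neighbours in the low counts was not tested. In the pooled list the 5 members had a median of 2.25 summits per 10 kb and the 649 genes 0.955, with 4 of the 5 above that value.

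**Figure D3:**
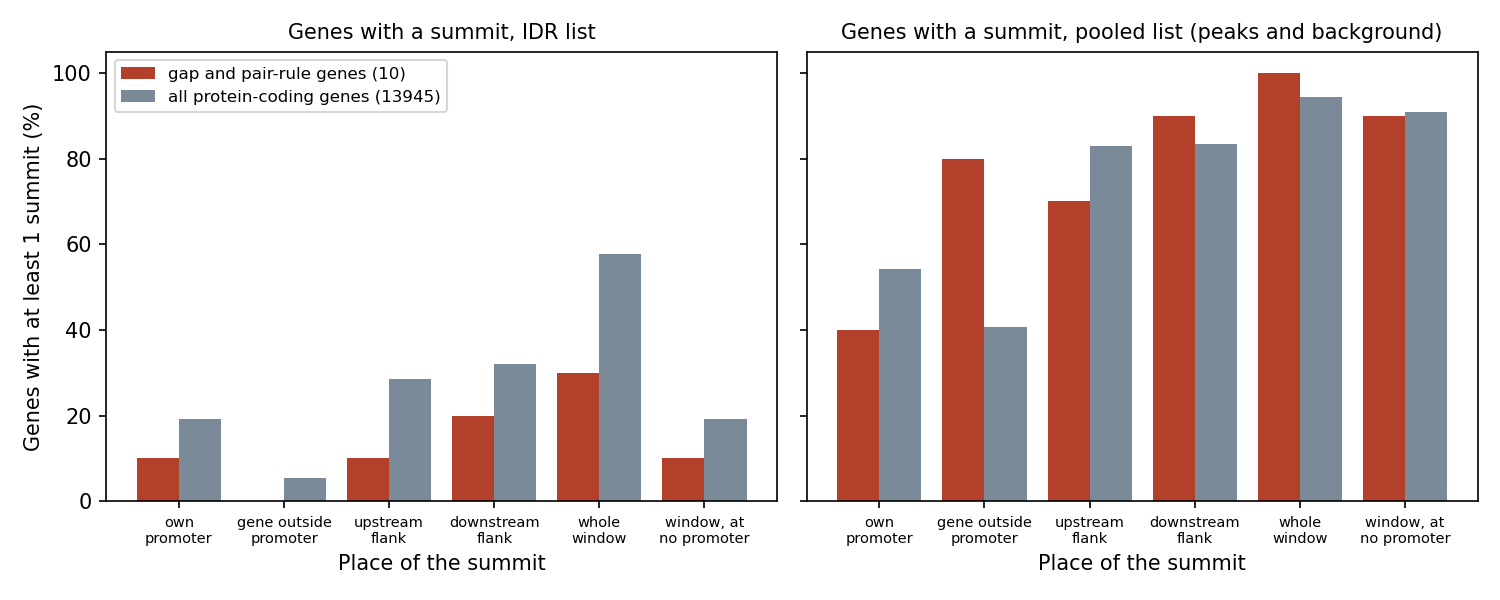
Share of genes (vertical axis, percent) with at least 1 summit in the own promoter, the gene outside it, each 10 kb flank, the whole window and the window outside promoters, for the 10 gap and pair-rule genes (red) and all 13945 protein-coding genes (grey), in the IDR list (left panel) and the pooled list (right panel). In the IDR list each red bar is below its grey bar, and in the pooled list the widest gap with red above grey is in the gene outside its promoter.

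The pooled list of 30000 peaks reaches down to peaks with a −log10 q of 0.0686 and so includes background. All 10 windows held a pooled summit, against 94.5% of genes, and 61 summits in all. At the own promoter it was 4 of 10 (hb, eve, h and odd) against 54.2%, in the upstream flank 7 of 10 against 82.8%, and in the downstream flank 9 of 10 against 83.4%. Of the 18 summits in upstream flanks, 4 were at the promoter of another gene and 10 in intergenic sequence. Of the 25 in downstream flanks, 1 was at another promoter and 24 were intergenic. All 3 replicates had a summit within 150 bp of 2 of the 18 upstream summits and of 7 of the 25 downstream ones. Over all 61 summits it was 12, or 19.7%, against 25.1% of all pooled summits. Intergenic sequence held 34 of the 61, or 55.7%, against 14.5% of all pooled summits. Promoters of any gene held 12, or 19.7%, against 31.9%, and introns 1, or 1.64%, against 31.3%. The 61 come only from these gene-poor windows, while the shares of all pooled summits are genome-wide. How much of the windows' sequence is intergenic is not given, so these shares show no preference for intergenic sites. The part of the choice of windows in them was not tested.

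Inside the gene, a larger share of these genes than of all genes held a pooled summit, and the density per kb was higher. In the pooled list it was 0.4205 summits per kb against 0.2083. Outside the promoter, 8 of 10 genes held a pooled summit there, against 40.6% of protein-coding genes, and eve and gt had none. In the relaxed replicate lists it was 5 of 10 in replicate 1 against 39.6%, 6 of 10 in replicate 2 against 43.0%, and 7 of 10 in replicate 3 against 41.2%. The 11 summits were in coding exons (8) and 3' UTRs (3), at pooled ranks from 7523 to 24417, and 0 of them were in the IDR list. Over the coding sequence outside promoters, the members had 0.823 ± 0.214 summits per kb in the replicate lists and all protein-coding genes 0.293 ± 0.0541 (SD, n = 3). Replicates 1, 2 and 3 had 7, 12 and 10 such summits in the 11.8 kb of the members. The members' coding sequence was richer in G and C, 59.7% against 53.4%, and the part of base composition in the difference was not tested.

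Per kb of sequence, the replicate lists of 30000 peaks gave overlapping densities for the promoters of these and of all genes, and lower ones for both flanks of these genes. Promoters had 0.658 ± 0.121 summits per kb, against 0.610 ± 0.0362 for all protein-coding genes (SD, n = 3). In upstream flanks the density was 0.175 ± 0.0475 against 0.312 ± 0.00306, and in downstream flanks 0.263 ± 0.0231 against 0.316 ± 0.00505 (SD, n = 3). In each flank all 3 replicates were below the all-gene value, at 17, 21 and 12 summits in 95 kb upstream and 25, 25 and 29 in 100 kb downstream. These flanks hold fewer genes than those of other genes, and the part of that in the difference was not tested.

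**Figure D4:**
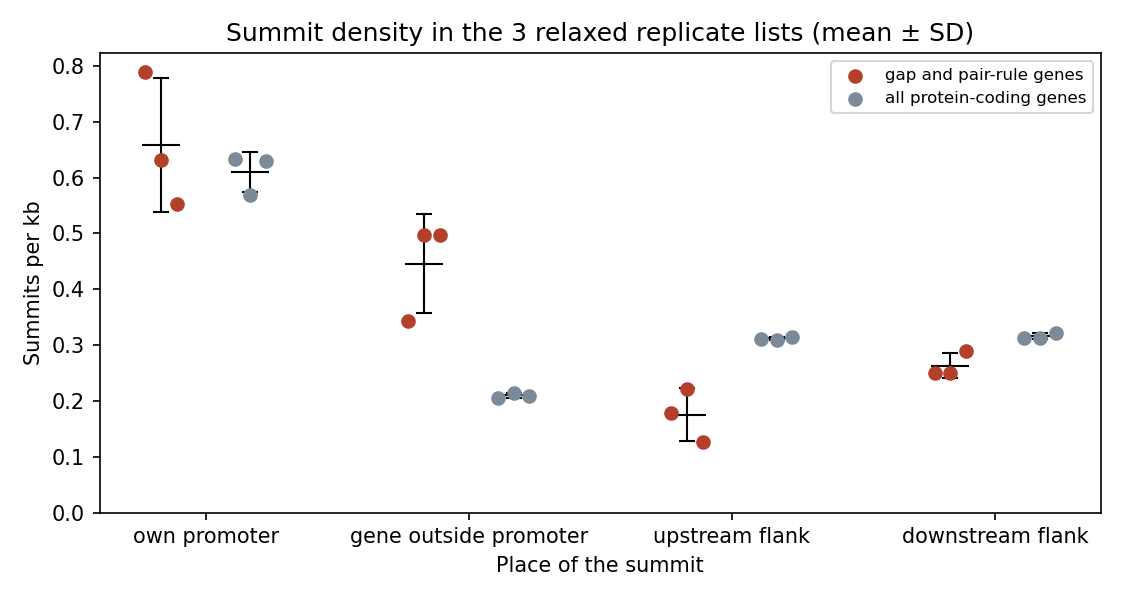
Summits per kb (vertical axis) in the relaxed lists of the 3 replicates, for the 10 gap and pair-rule genes (red) and all protein-coding genes (grey) in the own promoter, the gene outside it and each flank. Points are replicates and bars are the mean ± SD. The gene outside the promoter shows 0.446 ± 0.0883 against 0.210 ± 0.00416 per kb, and both flanks are lower for the gap and pair-rule genes in each replicate.

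Among the 61 pooled summits, the site AAGTCA of the NR2E receptors was found within 50 bp of 4, or 6.56%, against 4.37% of all pooled summits and 4.81% of IDR summits. These were at eve -8113, h +8072, h +13211 and run -7627. Of the other sequences searched on both strands, AGGTCA of nuclear receptors, TATCGATA of DREF and BEAF and CAGGTA of Zelda, the early genome activator, were at 0 of the 61. Among all pooled summits 2.52% had AGGTCA, 1.15% TATCGATA and 2.33% CAGGTA. No match says only that these letters are not in these windows. TAATCC, bound by Bicoid, was at 1 (eve -5785), against 2.72%. GAGAG was at 11 of the 61, against 13.3%. The sequence at the 61 summits was 48.1% G and C, against 45.9% for all pooled summits.

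The other genes of the early network, a list of 26 chosen by role, gave a wider view, and 25 were matched to 1 gene each (nos was not). IDR summits lay at the promoters of 5 of the 25, namely bcd, cnc, Trl, Stat92E and gro, against 19.1% of protein-coding genes. The strongest was at gro, the corepressor that acts with h and other pair-rule repressors, with a signal of 332 and rank 191, and replicates 1, 2 and 3 all had a summit there among their highest 3496. At Trl, the gene of GAGA factor, it had a signal of 191 and rank 705. At bcd, the maternal anterior determinant, the values were 132 and 1441, at Stat92E 110 and 1953, and at cnc 101 and 2275. Of the 9 genes that the list groups as gap and head gap, cnc among them, 4 had an IDR summit in the window, against 57.8% of protein-coding genes. These were cnc with 3, oc and croc with 2 each and btd with 1, and tll, hkb, kni, knrl and ems had none. Among 5 late pair-rule genes and paralogs there was no promoter summit, and slp2 had the same 2 summits as slp1. Of the 25, 16 had an IDR summit in the window, against 57.8% of protein-coding genes, and 11 had one at no promoter, against 19.2%. A window grows with the length of its gene. Pooled summits in these windows ranged from 5 (as at tll) to 59 (pum), against a median of 8 over all protein-coding genes. The part of window length in these counts was not tested.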

How the data were processed

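Per the labels, the authors sheared chromatin by sonication to 200 to 800 bp. According to the deposited file notes, the alignment of 1 replicate, with 1 further file that is not described there, gave each replicate list, all 3 alignments with it gave the pooled list, and these lists gave the IDR list. An aligner or peak caller is not named in those notes. The deposited lists give a signal value per peak, with no common scale between lists, which serves here for ranks inside each list. The −log10 q values are the authors' too. The files hold no read counts, so depth is unknown. The 5 dm6 lists were used, and the 5 dm3 lists were not.

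Summits were placed on Release 6 (Ensembl release 115, annotation 6.54), with sequence from the RefSeq assembly of the same release. TSSs were those of all annotated transcripts except of transposable elements. A replicate matched a summit within 150 bp, and a top list was a replicate's highest 3496 peaks. Motifs were sought within 50 bp of summits. Placement was tested on simulated summits. The members and lists were chosen with earlier results of these data known. The text names all 10 members, genes with a promoter IDR summit in a window, and network genes with one at their own promoter. Network genes without one, and the neighbours of prd, were named after their values were seen. Counts are descriptions, with no p-values. Python 3.11.15, numpy 2.4.6, pandas 2.3.3 and matplotlib 3.10.9 were used.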

Additional observations from a re-analysis of the deposited data

How the results depend on the processing

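Of 60 recomputed counts under other settings, 29 were within 1.5 times the reported value and 31 were not. With flanks of 5 kb the windows held 2 IDR summits and 30 pooled summits, and the mean over the replicates' highest peaks was 2.33 members. An IDR summit was then found for 2 of 10 members (h and slp1), against 44.6% of genes. With 20 kb the windows held 13 IDR and 122 pooled summits, 7 of 10 members had an IDR summit against 72.8% of genes, 4 had one at no promoter (ftz, h, odd and slp1) against 32.3%, and the replicate mean was 7. The 50% of the IDR list with the higher signal left 0 members with a promoter summit and 2 IDR summits. Using the pooled list in place of the IDR list gave 61 summits and 4 members with a promoter summit, against 54.2% of genes. It gave 10 members with one in the window against 94.5%, and 9 with one at no promoter against 90.9%. Counting a peak by any overlapping base gave 2 members with a peak at no promoter. The relaxed list of replicate 1 gave 7 members with a promoter summit, against 54.4% of genes. The higher-signal 15000 pooled peaks left 2 members with a promoter summit and 32 summits, and a top list 50% as long gave a mean of 1.67 members. A shortened list can only lower such counts, for any gene, and no all-gene share is given for the shortened lists.

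Each replicate was also left out in turn, without calling peaks again. Only listed summits that both other replicates matched were kept, so these counts could only fall. Each time 0 members had a promoter IDR summit, and the windows held 2 to 3 IDR summits. A pooled summit at the own promoter was left for 1 to 2 members, and the windows held 17 to 20 pooled summits. No all-gene share under this filter is given, so the falls cannot be set against those of other genes. The slp1 +6847 summit was in the highest 3496 peaks of all 3 replicates. Depth is unknown, so a missing summit means only that none was listed, and with 10 genes 1 gene moves a share by 10%.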
